A study of Homo sapiens with 4 samples.

Results

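The genes described here make cholesterol and long-chain fatty acids, or sense the sterol that is made. They were listed by symbol from pathway knowledge, with earlier results of these data known, 31 in all. Of these, 29 had a named transcript probe set on the array, which holds 20893 transcript probe sets for 17687 different named genes. FDFT1 and FADS1 had no probe set under their symbols in the annotation used and are not analysed here. RNA levels were measured on 4 Human Clariom S arrays, on which groups of short probes, called probe sets, report the level of a gene in 1 colour. The cells were K562, an established cell line of chronic myeloid leukemia in which hemin induces erythroid features. Cells treated with 50 µM hemin, an oxidized form of heme, for 24 h gave 2 arrays, and cells at 0 h, without hemin, gave the other 2. The labels call the arrays of a time point biological replicates. Whether they came from separate cultures is not stated, so a p-value here speaks only of the spread among these 4 arrays, which can be technical. The labels hold no untreated sample at 24 h, so the effects of hemin and of a further day in culture cannot be told apart. In bulk RNA, fewer cells that express a gene and less of its RNA per cell cannot be told apart either.

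Cholesterol is built from acetyl-CoA in stages. The mevalonate stage makes isoprenoid diphosphates, which are joined to squalene, and squalene is oxidized, closed into lanosterol and trimmed to cholesterol. Fatty acids start from the same acetyl-CoA, which ATP citrate lyase releases from citrate, and are carboxylated, polymerized, elongated and desaturated. Both routes are switched on by the SREBP transcription factors, which SCAP escorts out of the endoplasmic reticulum when sterol is scarce and which INSIG proteins hold back when it is plentiful. Dividing cells such as K562 need both routes to build membranes.

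The promoters of 4 of these genes are printed to show the letters through which the pathway is known to be switched, which are the sterol regulatory element bound by SREBPs and the CCAAT box bound by their partner NF-Y. ELOVL6, IDI1 and DHCR7 were chosen because they showed some of the larger differences at 24 h of hemin in the lower direction. SREBF2 was chosen because, among the windows at hand for the listed genes, only its window holds the sterol element in the form searched. Each window runs from 250 bases before to 50 bases after a transcription start in the RefSeq annotation of GRCh38.p14, 5′ to 3′ on the gene's own strand. Capitals mark every CCAAT, its reverse complement ATTGG, and the sterol element. ELOVL6 lies at chr4:110198566-110198865 on the minus strand. IDI1 lies at chr10:1048837-1049136 on the minus strand, and is the window with the most CCAAT boxes among the 3 of this gene. DHCR7 lies at chr11:71448344-71448643 on the minus strand, 1 of 2 windows and taken by the same rule of the most CCAAT boxes. SREBF2 lies at chr22:41832855-41833154 on the plus strand.
ELOVL6: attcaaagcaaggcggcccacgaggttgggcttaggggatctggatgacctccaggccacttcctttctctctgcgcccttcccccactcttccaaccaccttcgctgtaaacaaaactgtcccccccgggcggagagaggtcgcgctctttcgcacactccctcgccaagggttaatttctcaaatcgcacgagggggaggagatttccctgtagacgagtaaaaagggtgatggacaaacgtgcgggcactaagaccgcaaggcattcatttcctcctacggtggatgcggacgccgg
IDI1: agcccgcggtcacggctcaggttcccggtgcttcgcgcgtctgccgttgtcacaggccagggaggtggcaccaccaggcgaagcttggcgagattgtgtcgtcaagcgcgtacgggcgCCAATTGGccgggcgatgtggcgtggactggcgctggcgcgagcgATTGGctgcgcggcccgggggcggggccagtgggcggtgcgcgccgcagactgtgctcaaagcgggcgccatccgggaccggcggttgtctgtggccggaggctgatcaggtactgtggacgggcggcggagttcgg
DHCR7: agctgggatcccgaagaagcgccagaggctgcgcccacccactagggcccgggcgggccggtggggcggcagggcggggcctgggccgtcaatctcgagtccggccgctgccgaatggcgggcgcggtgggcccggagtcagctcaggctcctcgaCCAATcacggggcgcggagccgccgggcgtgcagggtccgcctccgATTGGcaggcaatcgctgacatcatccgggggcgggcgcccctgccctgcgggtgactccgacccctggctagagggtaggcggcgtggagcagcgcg
SREBF2: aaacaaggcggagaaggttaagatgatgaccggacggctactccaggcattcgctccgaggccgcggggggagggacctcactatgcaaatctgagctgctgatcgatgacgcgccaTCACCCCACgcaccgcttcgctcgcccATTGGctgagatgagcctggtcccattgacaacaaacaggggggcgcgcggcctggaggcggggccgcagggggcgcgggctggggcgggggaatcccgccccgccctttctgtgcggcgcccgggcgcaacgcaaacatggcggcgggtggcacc

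The ELOVL6 window held no CCAAT box. The IDI1 window held 3, of which 2 overlap in the run of capitals farther from the start, the DHCR7 window held 2 and the SREBF2 window held 1. The sterol element was searched as TCACNCCAC on both strands. It was found once among the windows of the listed genes, in SREBF2, with its first letter at position -133 relative to the start. Other forms of the element were not searched, so the other windows cannot be said to lack a site for SREBPs. RefSeq windows were at hand for 27 of the 31 genes, 37 windows in all. A CCAAT box, searched on both strands, was in 24 of these 37 windows (64.9%), against 34.6% of all 35116 windows of the same length. Counted by gene, 20 of 27 listed genes (74.1%) had at least 1 such window, against 42.3% of the 14250 genes that have both a probe set and a window. The sterol element was in 1.13% of all windows. The E-box CACGTG was in 5 of the 37 windows (13.5%), against 7.26% of all and 8.21% of the windows of genes on the array. By gene it was in 4 of 27 (14.8%), against 10.8% of the 14250 genes. The GC box GGGCGG, on either strand, was in 33 of 37 (89.2%), against 45.0% of all and 56.9% of the windows of genes on the array. Each motif was counted separately, and matches of different motifs can share letters where they adjoin. These matches describe letters within 300 bases and say nothing about which factors bound there in K562 cells.

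The log2 values of the 29 measured genes, as normalized by the authors, ran from 6.52 to 14.21, and none had an array below 5.70, the 95th percentile of the mean values of 349 olfactory receptor genes and called the dim line here. Only MVK, PMVK and MVD, with 3 arrays each, and HSD17B7, with 1 array, went below 7.56, the 95th percentile of 612 negative control probe sets, so the level of the first 3 at 24 h of hemin was not above background by this measure. Values of different genes were not ranked against each other, since the brightness of a probe set also depends on its probes. The cells carried the markers of their label. The 6 measured of 8 erythroid and megakaryocytic K562 markers lay between 8.73 and 17.16, whereas of 17 measured of 20 markers of other cell types only EPCAM, an epithelial adhesion gene, averaged above the negative controls. The medians of the 4 arrays over all transcript probe sets were alike, 6.10 and 6.24 at 24 h of hemin and 6.17 and 6.20 at 0 h.

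**Figure D1:**
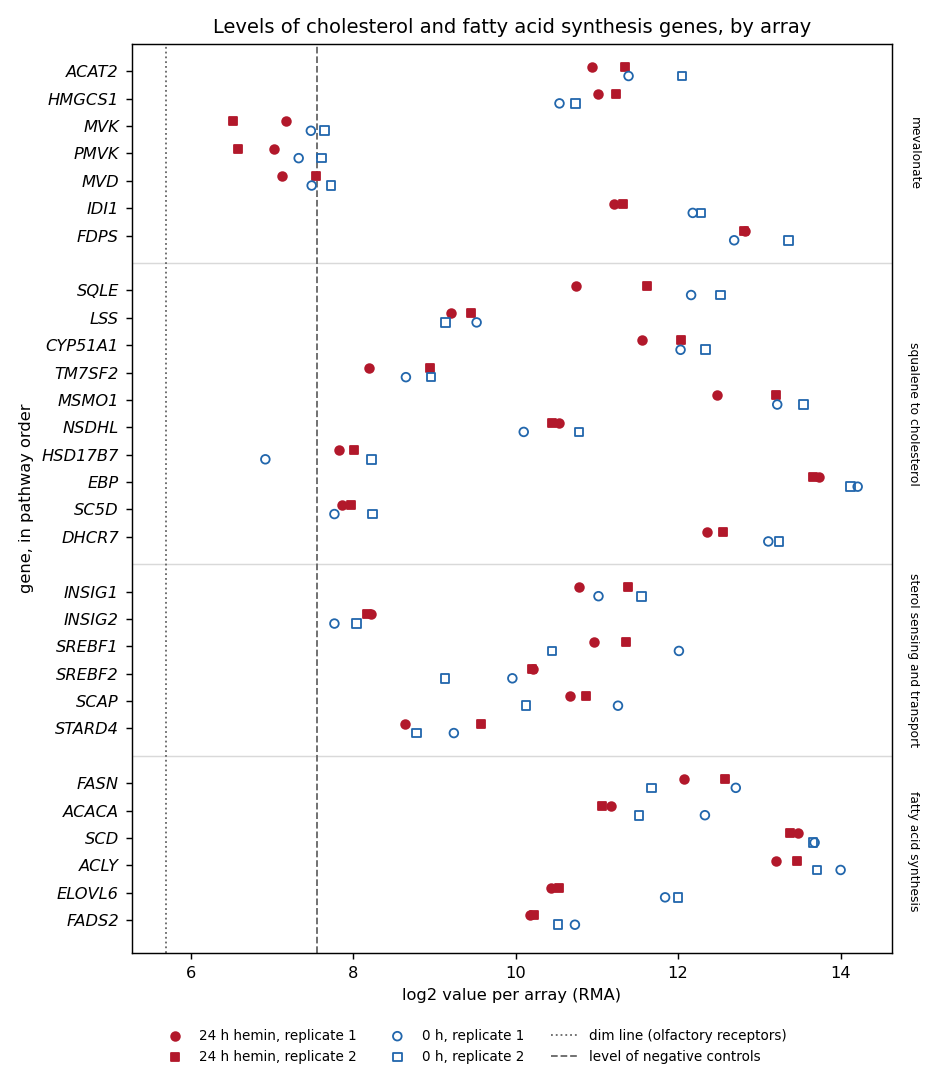
Log2 value of each measured gene on each of the 4 arrays, in pathway order; filled red symbols are 24 h hemin, open blue symbols 0 h, circles replicate 1 and squares replicate 2. The vertical lines are the dim line at 5.70 and the level of the negative controls at 7.56; for ELOVL6, SQLE, IDI1 and DHCR7 both red symbols lie left of both blue ones, while SREBF1, SCAP and FASN have blue symbols on either side of the red pair.

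No listed gene passed the test at 24 h of hemin. The test was limma's moderated comparison of 24 h minus 0 h, adjusted over all probe sets by the Benjamini-Hochberg method with a threshold of 0.05, which called 197 of 20893 probe sets (0.943%), mostly higher at 24 h (172 probe sets, 0.823%). The adjusted p of the listed genes ran from 0.0693 for ELOVL6 to 0.999 for LSS. At an unadjusted p under 0.05, 5 of 29 genes were lower at 24 h, namely ELOVL6, SQLE, IDI1, ACACA and DHCR7. By the same measure 6.62% of all probe sets were lower, and 1010 of the 11496 with a mean above the dim line. None of the 29 was higher at that level, where 6.28% of all probe sets were, and 1075 of the 11496 above the dim line. The count of 5 became 2 without 24 h replicate 1, 3 without 24 h replicate 2, 3 without 0 h replicate 2 and 4 without 0 h replicate 1. The fitted difference was below 0 for 20 of the 29 genes and above 0 for 9, where it was below 0 for 55.1% of all probe sets and for 52.6% of those with a mean above the dim line. Its median over the 29 genes was -0.25 on the log2 scale, beside -0.06 over all probe sets and -0.04 over those above the dim line.

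The arrays can also be compared without a model. Both 24 h arrays lay below both 0 h arrays for 14 of the 29 genes, where this held for 24.9% of all probe sets and 27.3% of those above the dim line. Both lay above for 3 genes, HMGCS1, INSIG2 and SREBF2, where this held for 18.8% of all probe sets and 23.4% of those above the dim line. For the other 12 genes the time points overlapped. With 2 arrays per time point, the 95% interval of a gene's difference reached between 0.69 and 1.07 to either side of the estimate on the log2 scale. Differences larger than that, such as those of ELOVL6 and SQLE, still missed the adjusted threshold.

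**Figure D2:**
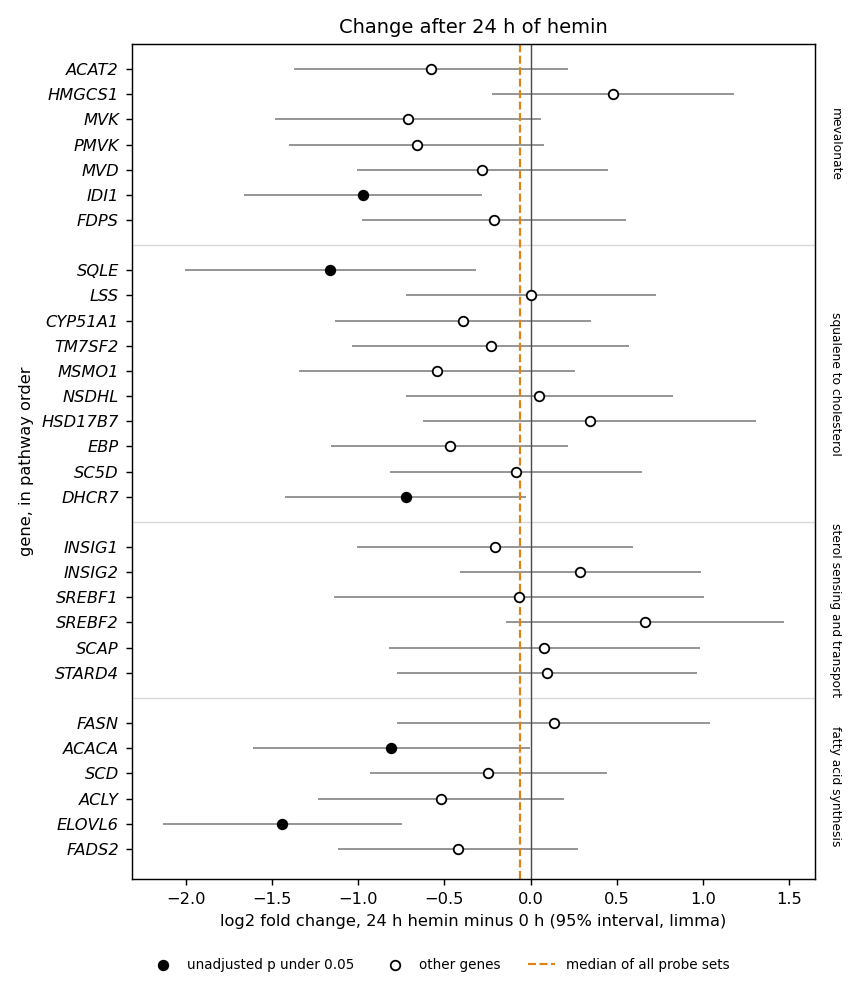
Log2 fold change of each measured gene, 24 h hemin minus 0 h, with its 95% interval from limma, in pathway order. Filled points have an unadjusted p under 0.05 and none has an adjusted p under 0.05; the dashed line is the median of all probe sets, -0.06, and 20 of the 29 points lie below 0.

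Fatty acid synthesis held the gene with the largest difference of the 29. ELOVL6, the elongase that lengthens saturated and monounsaturated chains such as palmitate, had log2 values of 10.43 and 10.53 at 24 h of hemin, against 11.84 and 12.00 at 0 h. The times did not overlap, and the distance between them was several times the gap within either pair. The fitted difference was -1.44 ± 0.31 (SE, n = 2 arrays per time), a level 0.369 times that at 0 h, with a 95% interval of -2.13 to -0.75 and an adjusted p of 0.0693 by limma, just above the threshold. The call was made when dim probe sets were left out beforehand, with a trend and robust variance model, or with the replicate number as a block (adjusted p = 0.0444, 0.0169 and 0.0489), and was not made when any 1 array was left out.

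The carboxylase and the lyase that feed the chain were also lower in both arrays at 24 h, without passing the test. ACACA, acetyl-CoA carboxylase, which makes malonyl-CoA, had 11.17 and 11.06 at 24 h of hemin, against 12.33 and 11.52 at 0 h. The arrays at 0 h stood 0.81 apart, about as far as the difference between the times of -0.81 ± 0.36 (SE, adjusted p = 0.386 by limma). ACLY, which cleaves citrate to acetyl-CoA, had 13.21 and 13.46 at 24 h, against 14.00 and 13.71 at 0 h, a difference of -0.52 ± 0.32. The desaturases showed smaller differences with close replicates. SCD, the desaturase that makes oleate, had 13.48 and 13.38 at 24 h, against 13.68 and 13.66 at 0 h. FADS2, a desaturase of polyunsaturated chains, had 10.18 and 10.23 at 24 h, against 10.73 and 10.52 at 0 h. In both the time points did not overlap, with adjusted p of 0.793 for SCD and 0.626 for FADS2 by limma. FASN, the synthase itself, had 12.07 and 12.58 at 24 h, against 12.71 and 11.67 at 0 h, so both 24 h values lay between the 0 h values, and its difference of 0.14 had an interval of -0.78 to 1.04. In all, 5 of the 6 fatty acid genes had fitted differences below 0, where 55.1% of all probe sets did, and the median was -0.47. At an unadjusted p under 0.05, 2 were lower, where 6.62% of all probe sets were, and 1010 of the 11496 above the dim line.

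In the mevalonate stage 6 of the 7 genes had fitted differences below 0, where 55.1% of all probe sets did, and the median was -0.58. IDI1, the isomerase that interconverts the pair of isoprenoid building blocks, had 11.21 and 11.32 at 24 h of hemin, against 12.18 and 12.28 at 0 h. Replicates lay within 0.11 of each other at each time and the times did not overlap. Its difference was -0.97 ± 0.31 (SE, n = 2 arrays per time), a level 0.511 times that at 0 h, with a 95% interval of -1.66 to -0.28 and an adjusted p of 0.211 by limma. RefSeq names 3 pseudogenes after IDI1, and signal from such copies cannot be told apart from that of the gene here.

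HMGCS1, the cytosolic synthase that makes HMG-CoA, went the other way from its neighbours, although not past the test. It had 11.01 and 11.23 at 24 h of hemin, against 10.54 and 10.74 at 0 h. Both 24 h arrays were the higher ones, and the difference was 0.48 ± 0.31 with an interval of -0.23 to 1.18 (adjusted p = 0.579 by limma). ACAT2, the cytosolic thiolase of the step before it, had 10.94 and 11.35 at 24 h, against 11.39 and 12.05 at 0 h, without overlap but with a 0 h gap of 0.66 against a difference of -0.58. Thus the enzymes of the first 2 listed steps differed in opposite directions, each within its error.

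The kinases that follow were measured near background. MVK, mevalonate kinase, had 7.18 and 6.52 at 24 h of hemin, against 7.48 and 7.65 at 0 h. PMVK, the next kinase, had 7.03 and 6.58 at 24 h, against 7.33 and 7.61 at 0 h. Neither overlapped between the times, but 3 of the 4 arrays of each lay below the level of the negative controls. Their differences were -0.71 ± 0.34 for MVK and -0.66 ± 0.33 for PMVK, with adjusted p of 0.428 and 0.446 by limma. MVD, the decarboxylase, had 7.12 and 7.54 at 24 h, against 7.49 and 7.73 at 0 h, and overlapped. FDPS, which joins the isoprenoid units to farnesyl diphosphate, had 12.82 and 12.81 at 24 h, against 12.69 and 13.36 at 0 h. Its 24 h pair was nearly identical and lay between the 0 h values, and RefSeq names 10 pseudogenes after it, so its value is uncertain for the same reason as that of IDI1.

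Among the genes that turn squalene into cholesterol, SQLE and DHCR7 had an unadjusted p under 0.05, and both were lower at 24 h of hemin. SQLE, squalene epoxidase, the first oxygen-dependent step, had 10.74 and 11.62 at 24 h of hemin, against 12.16 and 12.52 at 0 h. The times did not overlap, although the 24 h arrays were 0.88 apart. The difference was -1.16 ± 0.38 (SE, n = 2 arrays per time), a level 0.447 times that at 0 h, with an interval of -2.01 to -0.32 and an adjusted p of 0.222 by limma. Leaving out the lower 24 h array, replicate 1, brought it to -0.72, and leaving out replicate 2 brought it to -1.60. DHCR7, the reductase of the last step to cholesterol, had 12.35 and 12.55 at 24 h, against 13.11 and 13.24 at 0 h. Its 4 values were tight and did not overlap, with a difference of -0.72 ± 0.31 and an adjusted p of 0.363 by limma.

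The steps between them were mixed. EBP, the sterol isomerase, was the steadiest, with 13.73 and 13.66 at 24 h of hemin, against 14.21 and 14.12 at 0 h, and a difference of -0.47 ± 0.31. MSMO1, the methylsterol oxidase, had 12.48 and 13.20 at 24 h, against 13.22 and 13.54 at 0 h. CYP51A1, the lanosterol demethylase, had 11.56 and 12.03 at 24 h, against 12.03 and 12.34 at 0 h. In MSMO1 and CYP51A1 the upper 24 h array all but met the lower 0 h array, and the differences were -0.54 and -0.39. RefSeq names 3 pseudogenes after CYP51A1, 2 after HSD17B7 and 1 after SCD.

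The other 5 genes of this stage overlapped between the times. LSS, which closes the ring system, had 9.21 and 9.45 at 24 h of hemin, against 9.52 and 9.14 at 0 h, and its difference of 0.00 had an interval of -0.72 to 0.73. NSDHL, a sterol dehydrogenase, had 10.53 and 10.45 at 24 h, against 10.10 and 10.78 at 0 h. HSD17B7, the sterol ketoreductase, had 7.83 and 8.01 at 24 h, against 6.92 and 8.23 at 0 h, and its fitted difference of 0.34 ± 0.43 was the highest of the stage and also the least certain. TM7SF2, a sterol reductase, had 8.20 and 8.95 at 24 h, against 8.65 and 8.96 at 0 h. SC5D, a sterol desaturase, had 7.86 and 7.98 at 24 h, against 7.77 and 8.24 at 0 h. Their differences were small beside the gaps within a time, at -0.23 for TM7SF2 and -0.09 for SC5D. Over the 10 measured genes of the stage 7 differences were below 0, 2 were lower at an unadjusted p under 0.05, 5 did not overlap, all of them lower at 24 h, and the median was -0.31. The shares over all probe sets were 55.1% below 0, 6.62% lower at an unadjusted p under 0.05 and 24.9% lower without overlap. Above the dim line they were 52.6%, 1010 of 11496 probe sets and 27.3%.

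The genes that sense and move sterol were the only stage with a median above 0, at 0.09, and none of the 6 had an unadjusted p under 0.05. SREBF2, the SREBP gene that acts mainly on cholesterol synthesis, had 10.22 and 10.20 at 24 h of hemin, against 9.96 and 9.13 at 0 h. Both 24 h arrays were above both 0 h arrays, but the 0 h arrays were 0.83 apart, and the difference of 0.66 ± 0.36 had an interval of -0.14 to 1.47 and an adjusted p of 0.484 by limma. Set against 0 h replicate 1 alone the difference was 0.25, and set against replicate 2 alone 1.08. INSIG2, a retention protein of the endoplasmic reticulum, had 8.22 and 8.17 at 24 h, against 7.77 and 8.04 at 0 h, without overlap and with a difference of 0.29 ± 0.31. INSIG1, its paralog and itself a known SREBP target, had 10.78 and 11.38 at 24 h, against 11.02 and 11.55 at 0 h, overlapping, with a difference of -0.20.

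SREBF1, whose product acts mainly on fatty acid genes, was the least certain gene of the 29. It had 10.97 and 11.36 at 24 h of hemin, against 12.01 and 10.45 at 0 h. The 0 h arrays enclosed the 24 h arrays, and the difference of -0.07 ± 0.48 had an interval of -1.14 to 1.01. SCAP, the escort of both SREBPs, had 10.67 and 10.87 at 24 h, against 11.26 and 10.13 at 0 h, again with the 0 h pair on either side. STARD4, a carrier that moves cholesterol between membranes, had 8.64 and 9.58 at 24 h, against 9.24 and 8.78 at 0 h, with the spread at 24 h instead.

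The gap between the 2 arrays at 0 h ran in different directions in the different stages. Replicate 1 at 0 h was above replicate 2 by 1.55 for SREBF1, 1.12 for SCAP, 1.04 for FASN, 0.83 for SREBF2 and 0.81 for ACACA. It was below replicate 2 by 1.31 for HSD17B7, and by between 0.66 and 0.68 for NSDHL, FDPS and ACAT2. Replicate 1 was the higher array in 5 of 6 fatty acid genes and 4 of 6 sterol sensing genes, but in 0 of 7 mevalonate genes and 2 of 10 genes from squalene to cholesterol. Over all probe sets, replicate 1 was the higher array in 10593 of 20893. For 14 of the 29 genes the gap at 0 h was larger than the difference between the times, where this held for 11521 of all 20893 probe sets.

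**Figure D3:**
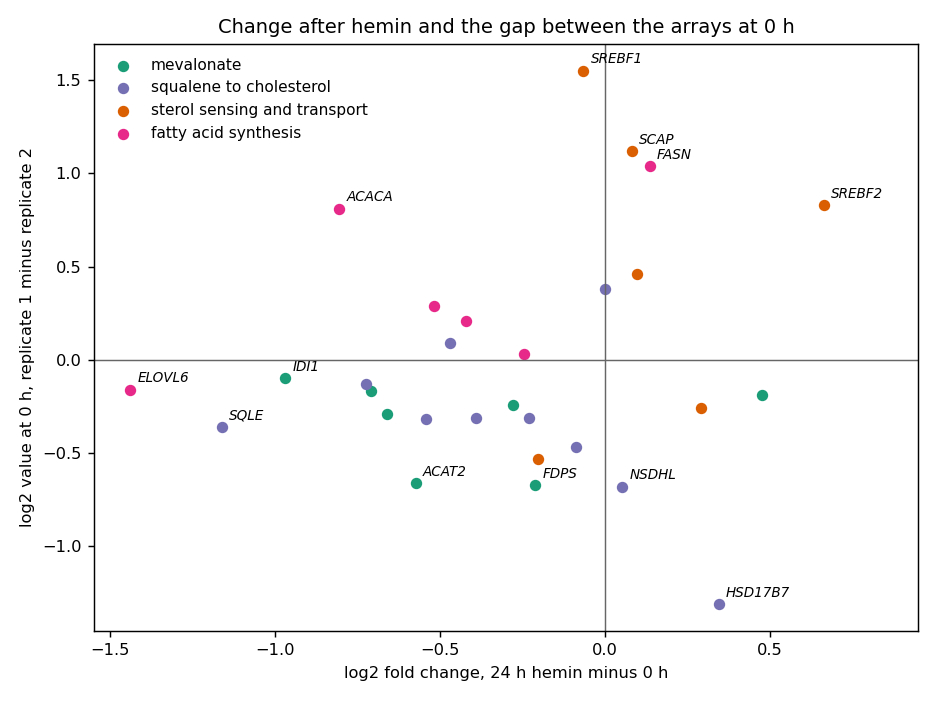
For each measured gene, the log2 fold change at 24 h of hemin minus 0 h (horizontal) and the log2 value of replicate 1 minus replicate 2 at 0 h (vertical), coloured by stage. ELOVL6 and IDI1 lie far left with gaps of -0.16 and -0.10, SQLE with a gap of -0.36, whereas SREBF1, SCAP and FASN have the largest positive gaps and changes near 0.

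Over the 29 genes together, the gaps were not larger than elsewhere on the arrays. The median gap between replicates was 0.21 at 24 h of hemin and 0.32 at 0 h over the 29 genes, and 0.31 at 24 h and 0.38 at 0 h over all probe sets. The stages differed at 0 h. The median gap there was 0.68 for sterol sensing and transport, above that of all probe sets. It was 0.34 from squalene to cholesterol, 0.25 for fatty acid synthesis and 0.24 for the mevalonate stage. A gap over 0.5 at 0 h was found in 10 of the 29 genes (34.5%), against 37.9% of all probe sets. What set the 0 h arrays apart for these genes was not tested.

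The pathways around the synthesis genes were looked at through lists of genes chosen by function, with earlier results of these data known. Called genes were found in 2 of the 7 lists, which is therefore not an independent finding. Over all probe sets, 0.943% were called in either direction and 0.823% higher at 24 h. In the supply of citrate and NADPH, which synthesis consumes, 1 of 7 measured genes was called, higher at 24 h, and the median was 0.52. This gene was ME1, the cytosolic malic enzyme, a source of NADPH, with 13.76 and 13.48 at 24 h of hemin, against 9.03 and 9.29 at 0 h. The values were far apart, and the difference was 4.46 ± 0.32, with an adjusted p of 0.00044 by limma. Among genes for storage, efflux and trafficking of cholesterol, 1 of 10 measured genes was called, higher at 24 h, and the median was 0.13. For 4 of these 10 genes all 4 arrays were below the level of the negative controls, as for 12031 of all 20893 probe sets. The called gene was NPC1, which exports cholesterol from lysosomes, with 12.50 and 12.75 at 24 h of hemin, against 10.52 and 10.06 at 0 h. NPC1 rose 5.02-fold, by 2.33 ± 0.33 on the log2 scale (adjusted p = 0.0115 by limma), and lost the call when either 0 h array was left out (adjusted p = 0.0683 without replicate 1 and 0.111 without replicate 2).

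In the other 5 lists 0 genes were called, and the gene with the largest difference in each is given as a value. Of the isoprenoid branch, 12 genes were measured with a median of -0.29. PDSS1, a subunit of the synthase that makes the prenyl tail of coenzyme Q, had 9.71 and 9.83 at 24 h of hemin, against 11.34 and 11.32 at 0 h. This tight and clear separation gave a difference of -1.56 ± 0.31 with an adjusted p of 0.0554 by limma, and at the threshold of 0.05 the call was made under 7 of the alternatives tried. Of SREBP processing and sterol-regulated degradation, 10 genes were measured with a median of -0.39. SEC23A, a coat subunit of the vesicles that carry cargo out of the endoplasmic reticulum, had 9.62 and 9.47 at 24 h, against 7.69 and 8.45 at 0 h (adjusted p = 0.102 by limma). Both 24 h arrays of SEC23A were above both 0 h arrays, the opposite direction to the median of its list. The same held for SEC24A and MBTPS1, so 3 of the 10 genes were higher without overlap, where 18.8% of all probe sets were. Lower without overlap were 5 of the 10, where 24.9% of all probe sets were.

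The last 3 lists also held genes near background. All 4 arrays were below the level of the negative controls for 8 of 16 genes of elongation, 4 of 10 of glycerolipids and 4 of 13 of oxidation. This held for 12031 of all 20893 probe sets. Elongation, desaturation and activation outside the 29 genes had 16 measured genes and a median of -0.14. ACSL4, which activates arachidonate, had 6.92 and 7.19 at 24 h of hemin, against 7.82 and 8.0 at 0 h, with both 24 h arrays below the level of the negative controls. Glycerolipid synthesis and lipid droplets had 10 measured genes and a median of 0.09, with LPIN2, a phosphatidate phosphatase, at 11.07 and 10.59 at 24 h, against 10.19 and 9.49 at 0 h. Fatty acid oxidation had 13 measured genes and a median of -0.04, with ACADVL, the mitochondrial dehydrogenase of very long chains, at 11.29 and 10.89 at 24 h, against 10.04 and 9.17 at 0 h. None of these 3 genes passed, with adjusted p of 0.282 for ACSL4, 0.280 for LPIN2 and 0.121 for ACADVL by limma.

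**Figure D4:**
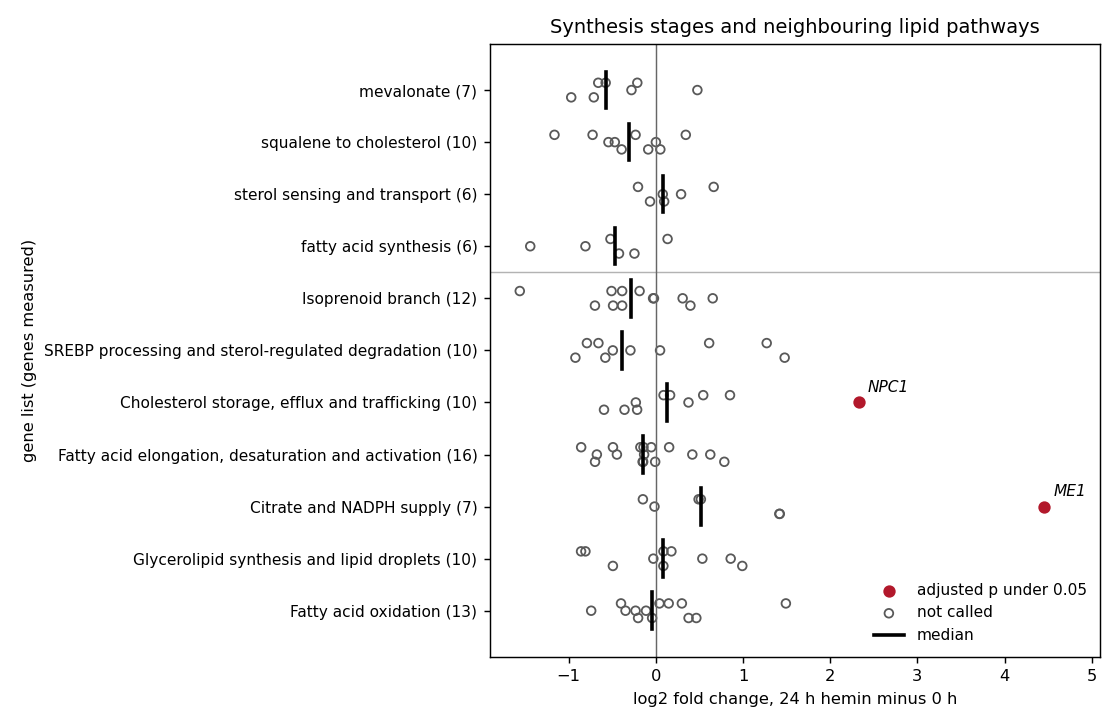
Log2 fold change, 24 h hemin minus 0 h, of each measured gene in the 4 stages of synthesis (top 4 rows) and in 7 neighbouring lipid pathways, with the number of genes in brackets; bars are medians and red points have an adjusted p under 0.05. Only NPC1 and ME1 are red, both to the right of 0, and no gene of the synthesis stages is.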

How the data were processed

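The authors hybridized RNA to 4 Human Clariom S arrays. Their Expression Console workflow used RMA (background correction, log2, quantile normalization), and the resulting log2 values were deposited, a single value for each probe set on each array, and used unscaled. Tool versions and genome build: not given in the sources used here. Of 24351 rows, 2903 control and 555 unmapped rows were left out. Symbols came from GEO's platform annotation and RefSeq, and the probe set with the highest mean represents a gene. Differences were fitted with limma 3.58.1 under R 4.3.3 (lmFit, eBayes, two-sided, no covariate; 7.47 prior degrees of freedom), adjusted over 20893 probe sets, with code tested on simulated data. Precision is limited by 2 arrays per time.

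The genes and lists were chosen with earlier results of these data known. Full statistics go to listed genes with an unadjusted p under 0.05, array values to these and to the highest and lowest difference of each stage, and other genes were added after their values were seen. From each further list come its called genes or else the largest difference above the dim line. The alternatives were a further quantile normalization, median centring, a filter at the dim line, a trend and robust variance, array weights, 1 probe set per gene, the replicate block, the methods' ANOVA, a threshold of 0.1 and leaving out each array. A filter at the negative controls was added after the data were seen.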

Additional observations from a re-analysis of the deposited data

How the results depend on the processing

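With 2 arrays per time point, only large differences could pass. The count of all probe sets called, 197, became 546 with a trend and robust variance, 495 with the filter at the negative controls (chosen after seeing the data), 429 with the replicate block, 418 at an adjusted p under 0.1 and 0 under the methods' ANOVA after Benjamini-Hochberg adjustment, where ME1 (adjusted p = 0.392) and NPC1 (adjusted p = 0.457) also lost their calls. The methods name a threshold of 0.05 and no adjustment, and so applied the ANOVA passed 1930 probe sets, 1071 of them lower at 24 h, and 5 of the 29 genes, each lower at 24 h, namely IDI1, EBP, DHCR7, SCD and ELOVL6. With 1 array left out the count of 197 ranged between 27, without 0 h replicate 1, and 392, without 24 h replicate 2, and was 53 without 0 h replicate 2. Of the 29 genes 0 were called, but 1, ELOVL6, under the dim filter, the trend and robust variance, the replicate block, an adjusted p under 0.1, and the negative control filter, and 0 whichever array was left out. Its difference ran between -1.52 and -1.36 over the alternatives and its adjusted p between 0.0169 and 0.427. Genes lower at an unadjusted p under 0.05 numbered 2 to 4 with an array left out, against 5, and the median of -0.25 ran between -0.44 and -0.16. At the threshold of 0.05, PDSS1 passed under 7 of 13 alternatives, ACADVL under 3 and SEC23A under 2.

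The replicate 1 minus replicate 2 differences at the 2 times correlated at -0.003 over all probe sets. Whether the replicate numbers pair the arrays by culture or batch is not stated, and this correlation cannot settle it. The block changed the call of no listed gene other than ELOVL6.

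The direction held under each alternative for 18 of 29 genes. LSS was -0.026 after a further quantile normalization. With 1 array left out, LSS ran between -0.19 and 0.19, FDPS between -0.55 and 0.12, TM7SF2 between -0.60 and 0.14, NSDHL between -0.29 and 0.39, HSD17B7 between -0.31 and 1.00, SC5D between -0.32 and 0.15, INSIG1 between -0.50 and 0.10, SREBF1 between -0.84 and 0.71, SCAP between -0.48 and 0.64, STARD4 between -0.37 and 0.56, and FASN between -0.38 and 0.65. The median of all probe sets, -0.06, was -0.04 after median centring and -0.03 after quantile normalization.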
